A study of Mus musculus with 37 samples.

Results

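The clonotypes described here are rearranged T cell receptor beta (TRB) genes from mouse lymph node DNA whose CDR3, the complementarity-determining region at the joint, carries an amino acid triplet that a D beta segment can encode. A clonotype entered the D beta 2 class when its CDR3, read from residue 5 to the sixth from its end, held DWG or GLG, and the D beta 1 class when it held DRG or GQG. The window left out the outermost residues of the CDR3, but variable (V) and joining (J) segments can still give residues inside it. Among D beta 2 clonotypes with a TRBJ2 segment, 18.3% had a base of the triplet inside the V alignment and 7.70% inside the J alignment. Of 1704980 listed clonotypes, 251151 (14.7%) were members, with 149370 (8.76%) in the D beta 2 class and 101781 (5.97%) in the D beta 1 class. A further 736 clonotypes held triplets of both kinds and were left out. The D beta 2 class was made up of 83448 clonotypes with DWG and 66040 with GLG, and the D beta 1 class of 46131 with DRG and 55948 with GQG. In 118 and 298 clonotypes of the classes both triplets of the class were present.

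A TRB gene is assembled in a developing T cell by joining a V, a D and a J segment, and the joint of the 3 encodes the loop that meets the peptide. The locus has a pair of D segments, each followed by its own cluster of J segments. D beta 1 lies before both clusters and can join to either, whereas D beta 2 lies after the TRBJ1 cluster, so a deletion joins it only to TRBJ2. D segments are short and rich in G, are trimmed at both ends, gain added bases at the joints and can be read in any of the 3 frames. In the RefSeq annotation of GRCm38.p6 the order on chromosome 6 is Trbd1, Trbj1-1 to Trbj1-7, Trbd2 and Trbj2-1 to Trbj2-7, with Trbj2-6 a pseudogene. Trbd1 is annotated there with a length of 12 bases and Trbd2 with 14.

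The libraries came from 37 mice, 1 library per mouse, in 9 groups. The 32 treated mice carried MMTV-PyMT, a transgene in which a mammary tumor virus promoter drives a viral oncogene in mammary epithelium, and the 5 mice of the group WTNT were FVBN, with no agent in their labels. PLX3397 (Pexidartinib), an inhibitor of the macrophage receptor CSF1R, was fed in chow (40 mg/kg per day, begun when mice were 80 days old). PTX injections of 10 mg/kg started at 85 days of age. Injections of aPD-1, an antibody to PD-1, an inhibitory receptor on T cells, started at 87 days with 1.0 mg and continued with 0.5 mg. The PTX and the aPD-1 injections were repeated at intervals of 5 days. An isotype antibody was the stated control for aPD-1, without saying in which groups, and mice received BrdU shortly before tissue was taken. At the time labelled d105 there were 6 PLX+PTX+aPD-1_R, 4 PLX+PTX+aPD-1_NR, 6 PLX+PTX, 2 PTX and 5 WTNT mice, and at d95 there were 5 PLX+PTX+aPD-1_R, 3 PLX+PTX+aPD-1_NR, 3 PLX+PTX and 3 PTX mice. R, NR and WTNT are not spelled out in the labels, and R and NR are used below for the pair of aPD-1 groups.

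The bases behind the triplets are shown first, because the classes differ in only a few letters. DWG was most often encoded by GACTGGGGG (77.8% of its clonotypes) and GLG by GGACTGGGG (80.7%), which are the same stretch read in different frames and join to GGACTGGGGG. DRG was most often encoded by GACAGGGGG (41.1%) and GQG by GGACAGGGG (56.1%), which join to GGACAGGGGG. The third frame of either D segment gives GTG, so this triplet belonged to neither class. GTG was encoded by GGGACAGGG in 47.0% and by GGGACTGGG in 41.3% of 106815 clonotypes. The following CDR3 sequences were chosen because they share TRBV5, TRBJ2-7 and a length of 13 residues and differ in the triplet. Each is the commonest nucleotide form over the libraries, with the bases of the triplet in capitals.
TRBV5 TRBJ2-7 DWG, D beta 2 class: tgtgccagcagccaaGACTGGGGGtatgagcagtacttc
TRBV5 TRBJ2-7 GLG, D beta 2 class: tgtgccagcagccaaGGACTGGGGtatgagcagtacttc
TRBV5 TRBJ2-7 DRG, D beta 1 class: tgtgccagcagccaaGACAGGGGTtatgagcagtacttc
TRBV5 TRBJ2-7 GQG, D beta 1 class: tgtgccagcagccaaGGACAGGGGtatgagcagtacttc
The most widely shared D beta 2 clonotypes with a TRBJ1 segment are shown beside them, chosen after the files were seen, because their triplets carry other bases. They are not typical of TRBJ1 clonotypes, where GACTGGGGG was still the commonest coding of DWG (45.4%) and GGACTGGGG of GLG (48.7%). The printed DWG form was found in 3 libraries. The printed GLG form is 1 of 6 forms, each found in 1 library.
TRBV2 TRBJ1-1 DWG, D beta 2 class: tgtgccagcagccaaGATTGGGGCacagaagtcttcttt
TRBV1 TRBJ1-1 GLG, D beta 2 class: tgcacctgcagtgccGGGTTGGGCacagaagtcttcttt

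Libraries at d105 held 1090573 to 2831566 reads and those at d95 held 90648 to 917752, so the ranges did not overlap and day and sequencing yield cannot be told apart. The shallowest library, d95 NR replicate 1, had 332 members, against 1735 to 13578 in the other libraries. Reads came from PCR without molecular identifiers, and each clonotype was counted once unless reads are named. Members held 12.5% of all reads. Errors are SD over mice, and tests were 2-sided permutation tests over mice.

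The classes differed in the J cluster they used. In the D beta 2 class 97.9% ± 0.602 (n = 37) of clonotypes had a TRBJ2 segment, with a lowest value of 96.9%, a median of 98.0% and a highest of 98.97%. In the D beta 1 class the share was 67.3% ± 1.69, from 62.8% through a median of 67.3% to 70.3%. The classes did not overlap in any library. The difference of 30.7 ± 1.93 percentage points lay above 0 in 37 of 37 libraries, at the smallest p that the resamples can give (permutation p 1e-05). Over all clonotypes the share was 77.9% ± 1.03, and over clonotypes of neither class with at least 12 residues it was 76.4% ± 1.15, so the classes lay on either side of it. Group means of the D beta 2 class ran from 96.9% in d105 PTX mice to 98.6% in d95 PTX mice, and those of the D beta 1 class from 64.7% in d95 NR mice to 68.6% in d105 PTX mice. Members whose triplet began at residue 5, just inside the window, had shares of 98.6% and 69.4%, and the 1952 clonotypes with a triplet at residue 4, just outside it, had 97.2% and 68.7%.

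**Figure D1:**
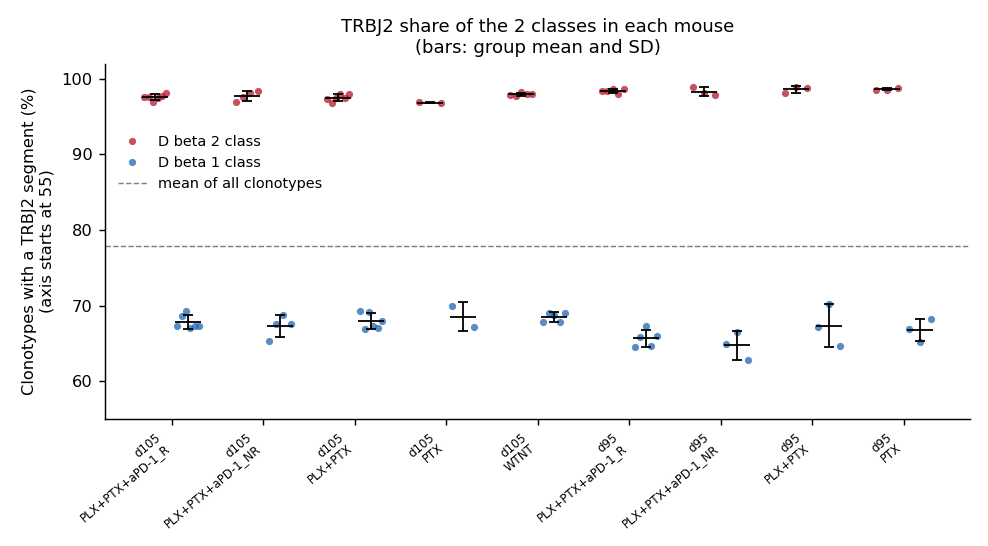
The percent of clonotypes with a TRBJ2 segment is plotted for each mouse by group, with the D beta 2 class in red and the D beta 1 class in blue, group means and SD as black bars, and the mean of all clonotypes as a dashed line. The red points lie between 96.9% and 98.97% and the blue points between 62.8% and 70.3% in all 9 groups.

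The split held for each triplet and for the bases of the frame that the classes did not use. DWG had TRBJ2 in 98.2% ± 0.631 and GLG in 97.6% ± 0.690 of clonotypes, against 70.0% ± 1.80 for DRG and 65.0% ± 2.35 for GQG. GTG as a whole lay between them at 80.2% ± 1.23. Split by its bases, the form GGGACTGGG had TRBJ2 in 98.6% ± 0.802 and the form GGGACAGGG in 66.5% ± 1.65. Among the 783 triplets held by at least 1000 clonotypes, DWG ranked 83 and GLG 100 from the highest TRBJ2 share, GTG 333, DRG 542 and GQG 619. The ends of that ranking were triplets that in under 2% of their clonotypes lay before the J alignment, NNQ, VNQ, FNQ, GNQ and GDQ at the top and YNN, NYN, NSY, ISN and SYN at the bottom. Among the 383 triplets that lay mostly before the J alignment, a subset chosen after the values were seen, DWG ranked 22, GLG 32, GTG 152, DRG 301 and GQG 362. These ranks are a description with no test, since clonotypes can hold several overlapping triplets.

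The D beta 2 class still held 3313 clonotypes with a TRBJ1 segment, and these differed from the rest in reads and in bases. Of them 65.0% had a single read, against 27.2% of D beta 2 clonotypes with TRBJ2 and 25.8% of D beta 1 clonotypes with TRBJ1. TRBJ1 made up 5.15% of the D beta 2 class among clonotypes of 1 read and 0.988% among those of 2 to 9 reads, then 1.16% for 10 to 49 reads and 0.954% for 50 reads or more. Per library the TRBJ1 part of the class was 1.60% to 3.14% at d105 and 1.03% to 2.20% at d95.

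The bases of these TRBJ1 clonotypes changed with their reads. The commonest coding of the triplet was present in 1483 of 2153 clonotypes of 1 read (68.9%, 95% Wilson interval 66.9 to 70.8), in 52 of 282 with 2 to 9 reads (18.4%, 14.3 to 23.4) and in 31 of 878 with at least 10 reads (3.53%, 2.50 to 4.97). In the D beta 2 clonotypes with TRBJ2 it was present in 81.9% of those of 1 read and 78.9% of those with at least 10 reads. The joined bases GGACTGGGGG were in 0.114% of the TRBJ1 clonotypes with at least 10 reads and in 52.8% of the TRBJ2 clonotypes with as many. The third frame gave the same picture with no use of the classes: of 722 TRBJ1 clonotypes with GGGACTGGG, 95.01% had a single read, against 28.1% of 16760 with GGGACAGGG. The intervals cover the counting of clonotypes only, and whether clonotypes of 1 read come from other molecules of the library was not tested.

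Per library, over libraries with at least 5 TRBJ1 clonotypes of a triplet, the commonest coding of DWG was present in 78.4% ± 0.862 of clonotypes with TRBJ2 and 40.7% ± 14.7 with TRBJ1 (n = 36). For GLG the values were 81.5% ± 1.35 and 43.6% ± 15.7 (n = 36). Both differences, of 37.7 and 37.9 percentage points, held in 36 of 36 libraries (permutation p 1e-05, the smallest possible, adjusted over 4 tests 2e-05). The coding was chosen from all clonotypes of a triplet, and 81762 of 83448 with DWG and 64398 of 66040 with GLG had TRBJ2. That choice favored TRBJ2 for these triplets, so the p-values are no independent support. The same bases were also the commonest with TRBJ1. For the D beta 1 triplets the coding hardly depended on the cluster: the difference was 1.06 points for DRG (adjusted permutation p 0.204) and -0.54 points for GQG (0.459). Thus 2 of the 4 triplets passed (50%). Among clonotypes with at least 10 reads the differences were 70.6 points for DWG, 80.9 for GLG and 1.52 for DRG (adjusted permutation p 0.0588), and GQG then passed at -2.66 points (0.000827).

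What encoded the triplet in TRBJ1 clonotypes was read from the alignment points in the files. In 350 GLG clonotypes with TRBJ1-3, 78.6% had at least 1 base of the triplet inside the J alignment. The share was 15.1% of the 2860 D beta 2 clonotypes with other TRBJ1 segments. The latter set holds DWG as well as GLG, so triplet and segment cannot be told apart in this gap. The second commonest TRBJ1 coding of GLG was GGGCTTGGA (8.04%), and that of DWG was GATTGGGGG (20.7%), in which the aspartate codon differs. The authors' D calls, which read the same bases as the rule, gave TRBD2 to 98.4% ± 0.293 of D beta 2 clonotypes with TRBJ2 and to 74.3% ± 10.7 of those with TRBJ1, where TRBD1 was called for 22.7%. They gave TRBD1 to 95.1% ± 0.936 of D beta 1 clonotypes with TRBJ2 and to 97.6% of those with TRBJ1. The TRBD2 call of D beta 2 clonotypes with TRBJ1 changed with reads. Pooled over libraries, it was given to 92.3% of those of 1 read and 50.6% of those with at least 10 reads. With TRBJ2 the values were 98.7% and 98.4%. Among TRBJ1 clonotypes of neither class the call was TRBD1 in 59.5%, TRBD2 in 6.74% and none in 33.7%, and among TRBJ2 clonotypes of neither class it was 37.2%, 39.7% and 23.2%. The triplets covered part of the use of each D segment: 24.4% of TRBJ2 clonotypes called TRBD2 were in the D beta 2 class, and 13.5% of those called TRBD1 were in the D beta 1 class.

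**Figure D2:**
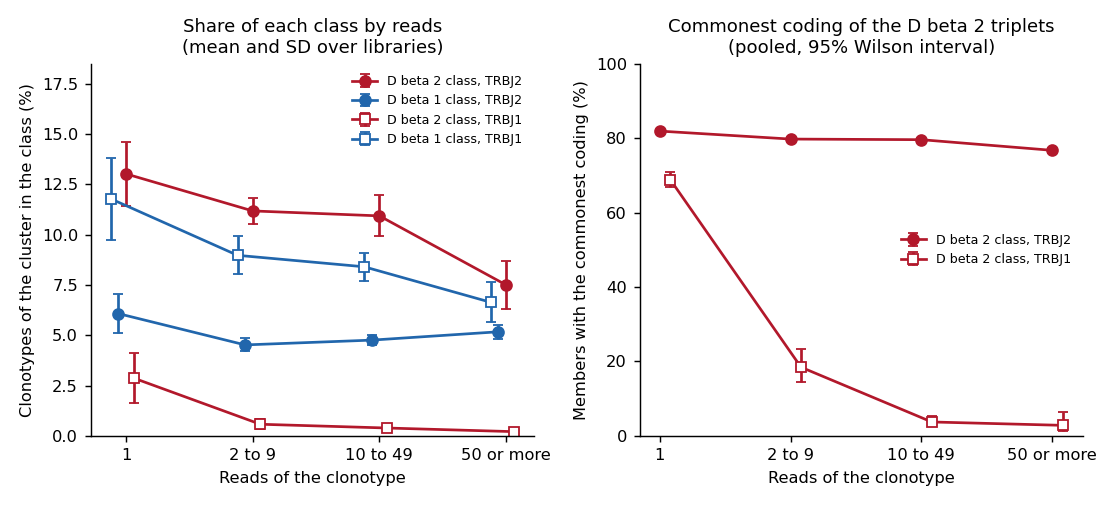
The left panel gives the percent of TRBJ2 (filled) and TRBJ1 (open) clonotypes that belonged to each class by the reads of the clonotype, as mean and SD over libraries. The right panel gives the pooled percent of D beta 2 members with the commonest coding and its 95% Wilson interval, which falls from 68.9% to 2.81% in TRBJ1 clonotypes and stays at 76.7% or more in TRBJ2 clonotypes.

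Within the TRBJ2 cluster, where either D segment can join, the ratio of the classes differed between J segments. It was expressed as log2 of D beta 2 over D beta 1 clonotypes, with 0.5 added to each count, in a segment minus the same over the other TRBJ2 segments. A J segment can supply bases of a triplet, and that share is not given by TRBJ2 segment here. TRBJ2-2, with 11736 D beta 2 and 7500 D beta 1 clonotypes, had the lowest ratio, 1.56 pooled. Its log2 ratio ran from 0.09 to 1.01. It lay below that of the other segments in 37 of 37 libraries, with a mean difference of -0.49 ± 0.18 (permutation p 1e-05, the smallest possible, adjusted 1.5e-05). TRBJ2-3 was also lower, by -0.19 ± 0.20 in 35 of 37 libraries. TRBJ2-4 was highest, with a pooled ratio of 2.69 and a difference of 0.33 ± 0.31 in 34 of 37 libraries (both adjusted permutation p 1.5e-05). TRBJ2-5 (0.13 ± 0.18) and TRBJ2-7 (0.08 ± 0.18, adjusted permutation p 0.00989) passed with small differences, and TRBJ2-1 did not (0.02 ± 0.21, adjusted permutation p 0.719). TRBJ2-5 was higher in 32 of 37 libraries, but TRBJ2-7 was higher in 22 and lower in 15. In all 5 of 6 segments passed (83.3%), 3 higher (50%) and 2 lower (33.3%), and 2 of 6 passed with DWG and DRG alone. TRBJ2-2 and TRBJ2-4 kept their direction and their call in all 7 alternatives. TRBJ2-5 had the other sign, at -0.10, and TRBJ2-1 passed at -0.15 when the ratio was taken from the bases of GTG. TRBJ2-3, TRBJ2-5 and TRBJ2-7 did not pass with DWG and DRG alone, and TRBJ2-5 did not pass with reads, nor TRBJ2-7 with the normalized clone count or the joined bases.

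The TRBJ1 segments held few D beta 2 clonotypes for each D beta 1 clonotype. TRBJ1-1, the most used, had 1077 of the former and 10240 of the latter, a ratio of 0.105. The ratio ran from 0.054 in TRBJ1-5 to 0.150 in TRBJ1-2 among TRBJ1-1 to TRBJ1-6. TRBJ1-7, with 215 clonotypes in all, held 4 and 24. D beta 1 triplets were present in 8.03% of TRBJ1-3 to 11.3% of TRBJ1-4 clonotypes among these 6 segments, and in 4.17% of TRBJ2-4 to 5.82% of TRBJ2-7 clonotypes.

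The V segment was tied to the class as well, although it is joined after the D and J segments. Among TRBJ2 clonotypes of 12 V segments, 11 differed from the other V segments (91.7% of those tested), 5 with more (41.7%) and 6 with fewer (50%) D beta 2 clonotypes per D beta 1 clonotype. TRBV29 had the lowest ratio, with 4413 D beta 2 and 6112 D beta 1 clonotypes, and was the only one of the 12 with fewer D beta 2 than D beta 1 clonotypes. Its log2 ratio was -0.50 ± 0.24, from -0.95 to -0.07, below 0 in every library. Against other V segments the difference was -1.67 ± 0.25, lower in 37 of 37 libraries (permutation p 1e-05, the smallest possible, adjusted 1.33e-05). TRBV26 followed, with a pooled ratio of 1.11 and a difference of -0.97 ± 0.30, also lower in 37 of 37 libraries.

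TRBV4 stood at the other end, with 16648 D beta 2 and 4488 D beta 1 clonotypes, a ratio of 3.71. Its log2 ratio was 1.88 ± 0.23, from 1.18 to 2.53, and its difference from other V segments was 0.87 ± 0.24, higher in 37 of 37 libraries. TRBV20 had a like ratio of 3.70 with fewer clonotypes (2741 and 741) and a wider spread, 0.86 ± 0.54, higher in 35 of 37. TRBV19 (0.53 ± 0.21), TRBV3 (0.40 ± 0.17) and TRBV2 (0.37 ± 0.22) were higher in 37, 36 and 34 libraries. The adjusted permutation p was 1.33e-05 for each of these segments.

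Smaller differences were found in the other V segments. TRBV24 was lower by -0.32 ± 0.18 and TRBV1 by -0.18 ± 0.16 (adjusted permutation p 1.33e-05 each), TRBV5 by -0.13 ± 0.30 (adjusted permutation p 0.0077) and TRBV30, with 779 and 446 clonotypes, by -0.40 ± 1.06 (adjusted permutation p 0.0254). TRBV24, TRBV1 and TRBV5 were lower in 36, 33 and 32 of 37 libraries, but TRBV30 was lower in 24 and higher in 13. TRBV23 did not pass (-0.14 ± 0.65, adjusted permutation p 0.185). TRBV29, TRBV26, TRBV4, TRBV20, TRBV3 and TRBV2 kept direction and call in the 7 alternatives run for V segments. TRBV1 changed sign with GLG and GQG alone, to 0.07, by the joined bases, to 0.08, and by the bases of GTG, to 0.37, and did not pass with reads (-0.05, adjusted permutation p 0.341). TRBV5 changed to 0.09 with reads and did not pass with at least 10 reads or with GLG and GQG alone, where TRBV30 did not pass either. TRBV24 changed to 0.02 by the bases of GTG, and TRBV19 fell to 0.05 there (adjusted permutation p 0.557).

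A V segment can supply part of a triplet, and the place of the triplet is given for that reason. No TRBV29 member had a base of the triplet inside the V alignment (0 of 4413 and 0 of 6112), and 1.85% of D beta 2 and 1.34% of D beta 1 members did in TRBV4. In TRBV20 the share was 52.8% and 53.8%, and 70.7% and 65.6% of its members had the triplet at residue 5. The authors' D calls were also read in TRBJ2 clonotypes of neither class, which hold no class triplet inside the window but can hold GTG or other triplets of the same bases. TRBD2 made up 30.9% ± 1.88 of D calls in TRBV29, 36.5% ± 2.49 in TRBV26, 57.3% ± 1.89 in TRBV4 and 61.7% ± 4.36 in TRBV20. Over the 12 V segments the mean log2 ratio of the classes and this percent had a Pearson r of 0.95 and a Spearman rho of 0.83, as a description, since both came from the same libraries.

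**Figure D3:**
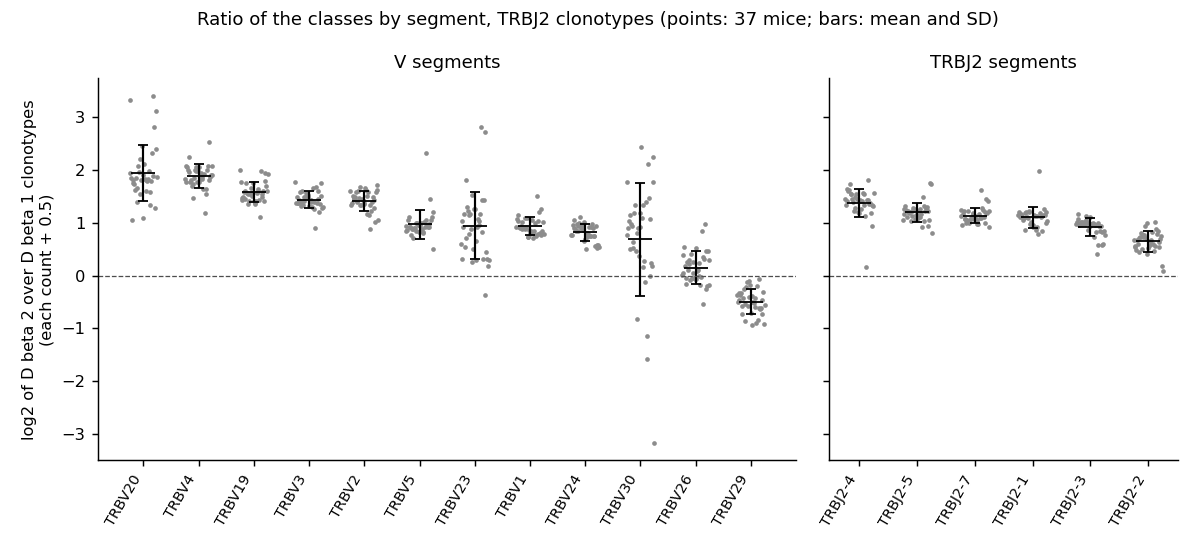
Log2 of D beta 2 over D beta 1 clonotypes, with 0.5 added to each count, is plotted for each of 37 mice (grey points) by V segment and by TRBJ2 segment, with means and SD as black bars. TRBV29 lies below 0 in every mouse, TRBV4 and TRBV20 have means of 1.88 and 1.94, and the TRBJ2 segments range from 0.65 (TRBJ2-2) to 1.38 (TRBJ2-4).

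D beta 2 members had the longer CDR3. Among TRBJ2 clonotypes the mean length was 14.9 ± 0.056 residues in the D beta 2 class, from 14.8 to 15.01, and 14.5 ± 0.043 in the D beta 1 class, from 14.4 to 14.6. The ranges of the classes over libraries did not overlap. The difference of 0.44 ± 0.058 residues was above 0 in 37 of 37 libraries (permutation p 1e-05, the smallest possible). Both triplets of each class took part: the means were 14.8 for DWG and 15.04 for GLG, against 14.4 for DRG and 14.6 for GQG. The commonest length was 15 residues in the D beta 2 class (34.1% of its clonotypes) and 14 in the D beta 1 class (33.2%). Clonotypes of neither class with at least 12 residues had a mean of 14.1 ± 0.038, which is not compared, since a longer CDR3 has a wider window.

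The share of D beta 2 members climbed with length far more than that of D beta 1 members. At 13 residues the classes held 5.11% ± 0.311 and 4.79% ± 0.423 of TRBJ2 clonotypes, nearly the same. At 15 residues they held 14.97% ± 0.716 and 6.10% ± 0.348, and at 17 residues 27.3% ± 1.96 and 6.60% ± 1.201. The pooled ratio of D beta 2 to D beta 1 members was 1.08 at 12 residues, 2.43 at 15 and 4.98 at 18. Both classes had the same window at each length, so its width did not enter the ratio.

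**Figure D4:**
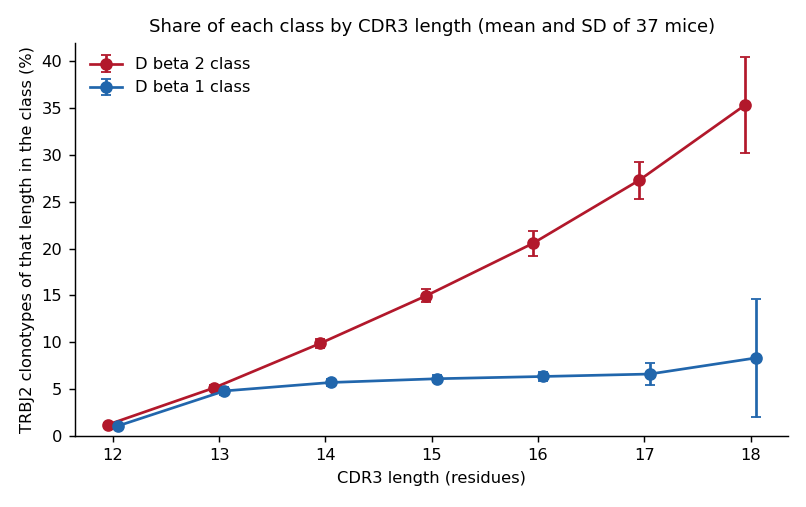
The percent of TRBJ2 clonotypes in each class is plotted against CDR3 length in residues, as mean and SD of 37 mice. The D beta 2 share rises from 1.18% at 12 residues to 35.4% at 18, while the D beta 1 share stays between 4.79% and 8.32% from 13 residues on.

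The joints of the classes differed at the J side. The D alignment of TRBJ2 members covered 11.02 ± 0.115 bases in the D beta 2 class and 9.97 ± 0.101 in the D beta 1 class, longer in 37 of 37 libraries. Fewer bases stood between D and J in the D beta 2 class, 1.55 ± 0.077 against 1.98 ± 0.096, and fewer J bases were missing, 3.54 ± 0.072 against 4.44 ± 0.114, both lower in 37 of 37. Between V and D the classes were close, with 1.18 ± 0.048 and 1.21 ± 0.070 inserted bases. No inserted base at either joint was found in 16.5% of D beta 2 members, 14.4% of D beta 1 members and 10.7% of TRBJ2 clonotypes in neither class. The D alignments read the bases that chose the members and are given with no test.

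Members of the D beta 2 class had fewer raw reads per clonotype. Within TRBJ2 the median reads per clonotype, averaged over libraries, were 12.4 ± 2.40 in the D beta 2 class, 16.4 ± 4.53 in the D beta 1 class and 17.9 ± 4.37 in neither. The D beta 2 median was lower than the D beta 1 median in 36 of 37 libraries and equal in 1. In step with this, D beta 2 members made up 13.02% ± 1.61 of TRBJ2 clonotypes of 1 read and 7.50% ± 1.197 of those with 50 reads or more. D beta 1 members made up 6.07% ± 0.954 and 5.17% ± 0.341. The deposited scores did not all go the same way: the log2 ratio of the classes in TRBJ2 was 1.09 ± 0.07 with each clonotype counted once, 0.86 ± 0.08 weighted by reads and 1.01 ± 0.10 weighted by the nb clone count, but 1.14 ± 0.11 weighted by the normalized clone count. Within TRBJ1 the D beta 1 share was 11.8% ± 2.05 for 1 read and 6.64% ± 0.987 for 50 reads or more.

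Most members were found in a single mouse. After clonotypes with the same V, J and amino acid CDR3 were merged, 78.5% of 79639 D beta 2 clonotypes with TRBJ2 and 80.5% of 41281 D beta 1 clonotypes with TRBJ2 were found in 1 library, beside 79.9% of those in neither class. At least 19 libraries held 297 (0.373%) of the D beta 2 clonotypes, 96 (0.233%) of the D beta 1 clonotypes and 0.263% of the rest. At 15 residues 75.4% of the D beta 2 class were private, against 80.9% in the D beta 1 class and 81.0% in neither, and at 13 residues 72.7% of either class were private, against 76.0% in neither. Of 2725 D beta 2 clonotypes with TRBJ1, 89.9% were private and 0 reached 19 libraries, with 14 the most. Sharing depends on depth and was not tested.

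The widely shared members were named as the 3 found in most libraries for each triplet. Their segments were not compared with those of other shared clonotypes. For DWG they were TRBV1 with TRBJ2-1, TRBV5 with TRBJ2-7 and TRBV2 with TRBJ2-4, each in 36 of 37 libraries. For GLG they were TRBV5 with TRBJ2-7 at 14 residues, TRBV3 with TRBJ2-7, and TRBV5 with TRBJ2-7 at 13 residues, in 35, 34 and 33 libraries. For DRG they joined TRBV5, TRBV1 and TRBV3 to TRBJ2-7, in 35, 31 and 30 libraries. For GQG they were TRBV5 with TRBJ2-7, TRBV24 with TRBJ2-3 and TRBV24 with TRBJ2-7, in 34, 32 and 31 libraries. Each was encoded by 13 to 34 nucleotide forms, and all 12 held the triplet at residue 6.

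The TRBV5 TRBJ2-7 clonotypes whose bases are printed above were present at like levels, in reads scaled to a library total of 1000000. The DWG clonotype had 166 ± 106 scaled reads (n = 37, lowest 0, median 142, highest 502 in d95 PTX replicate 2) and the GLG clonotype had 111 ± 86.6 (lowest 0, median 109, highest 342 in d95 NR replicate 1). The DRG clonotype had 156 ± 108 (lowest 0, median 136, highest 545 in d95 PLX+PTX replicate 2) and the GQG clonotype had 118 ± 97.1 (lowest 0, median 107, highest 553 in d95 NR replicate 3). The SD of each was more than 0.5 times its mean. The shallowest library, d95 NR replicate 1, lacked the DWG, DRG and GQG clonotypes, while the GLG clonotype had its highest value there. Why was not tested.

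Among group means of scaled reads, the DWG clonotype lay between 74.6 ± 71.1 in d95 NR mice (n = 3) and 278 ± 198 in d95 PTX mice (n = 3). The DRG clonotype lay between 63.5 ± 61.3 in d95 NR mice (n = 3) and 334 ± 254 in d95 PLX+PTX mice (n = 3). The TRBV2 TRBJ1-1 DWG clonotype was found in 14 of 37 libraries, in 7 nucleotide forms, with a median of 28.5 reads where present. At d105 it was in 4 of 5 WTNT, 3 of 4 NR, 3 of 6 PLX+PTX, 2 of 6 R and 0 of 2 PTX libraries. At d95, where libraries held fewer reads, it was in 1 of 5 R, 1 of 3 NR, 0 of 3 PLX+PTX and 0 of 3 PTX libraries. The TRBV1 TRBJ1-1 GLG clonotype was found in 6 of 37 libraries, in 6 forms and with no D call. No group test was made on single clonotypes.

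The groups were compared on the log2 ratio of D beta 2 to D beta 1 members among TRBJ2 clonotypes and on the percent of all clonotypes in either class. The 8 comparisons and 2 measures made 16 tests, over which p-values were adjusted. For the ratio, the 5 WTNT mice had 0.97, 1.02, 1.02, 1.04 and 1.09, and the 18 MMTV-PyMT mice at d105 lay between 1.03 and 1.16, so the groups overlapped. The means were 1.03 and 1.10, a difference of 0.07 (exact permutation p 0.00235, adjusted 0.0188), or 2.04 ± 0.058 D beta 2 members per D beta 1 member in WTNT mice against 2.09 to 2.17 as means of the treated d105 groups. WTNT mice also differ from the others in treatment, in strain label and in the range of their mouse numbers, which cannot be told apart from the transgene here.

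The call rested on part of the settings. The difference was 0.01 with classes taken from the joined bases (adjusted permutation p 0.914), 0.05 with DWG and DRG alone (0.485), 0.08 with the normalized clone count (0.41) and 0.09 with the nb clone count (0.286). Without WTNT replicate 5 it was 0.06 (exact adjusted permutation p 0.127) and without WTNT replicate 1 it was 0.07 (0.0514). It passed in the other 7 alternatives, with values up to 0.36 for clonotypes of at least 50 reads.

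The other ratio comparisons did not pass. The mouse numbers in the labels of the d105 MMTV-PyMT mice fall into a lower block (2 R and 4 PLX+PTX mice) and a higher block (4 R, 4 NR, 2 PLX+PTX and 2 PTX mice). R and NR mice had mean log2 ratios of 1.11 and 1.12 at d105 (exact permutation p 0.59) and 1.08 and 1.15 at d95 (0.232). Mice with and without aPD-1 beside PLX+PTX had 1.11 and 1.09 at d105 (exact permutation p 0.42) and 1.10 and 1.08 at d95 (0.661). At d105 this difference was 0.04 in the lower block and -0.02 in the higher block. Mice with and without PLX3397 beside PTX had 1.09 and 1.06 at d105 (exact permutation p 0.464, with 0.0357 the smallest possible) and 1.08 and 1.06 at d95 (0.8, with 0.1 the smallest possible). Between d105 and d95 within treatment the ratio differed by 0.00 (permutation p 0.931).

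The percent of clonotypes in either class was higher at d105 than at d95. The 18 d105 MMTV-PyMT libraries lay between 14.5% and 16.5%, and the 14 d95 libraries between 12.8% and 14.4%, so the days did not overlap. The means were 15.1% and 13.8%, and within treatment the difference was 1.37 points (permutation p 1e-05, the smallest possible, adjusted 0.00016). All d95 mice also fall in a block of mouse numbers apart from those of the d105 mice, which cannot be told apart from day. The same libraries differ in depth, and after each was thinned to 200000 reads, which left out d95 NR replicate 1, the difference was 0.15 points (adjusted permutation p 0.647). It was 0.31 points among clonotypes with at least 10 reads (0.138), -0.14 among those with at least 50 (0.898) and -0.12 when reads were summed in place of clonotypes (0.569).

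Treatments at 1 day did not differ in this percent after adjustment. At d105 the means were 14.96% in R, 14.6% in NR, 15.3% in PLX+PTX, 15.7% in PTX and 14.5% in WTNT mice. The largest gaps were the 0.58 points between MMTV-PyMT and WTNT mice (exact permutation p 0.0307, adjusted 0.148) and the -0.53 points for aPD-1 added to PLX+PTX (exact permutation p 0.0371, adjusted 0.148). The latter was -0.55 points in the lower and -0.18 points in the higher block of mouse numbers (exact permutation p adjusted 0.723 and 0.738). R against NR differed by 0.37 points at d105 (exact permutation p 0.0667, adjusted 0.213) and by -0.19 at d95 (0.482, adjusted 0.727). The remaining 3 comparisons had adjusted p-values of 0.582 to 0.738.

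**Figure D5:**
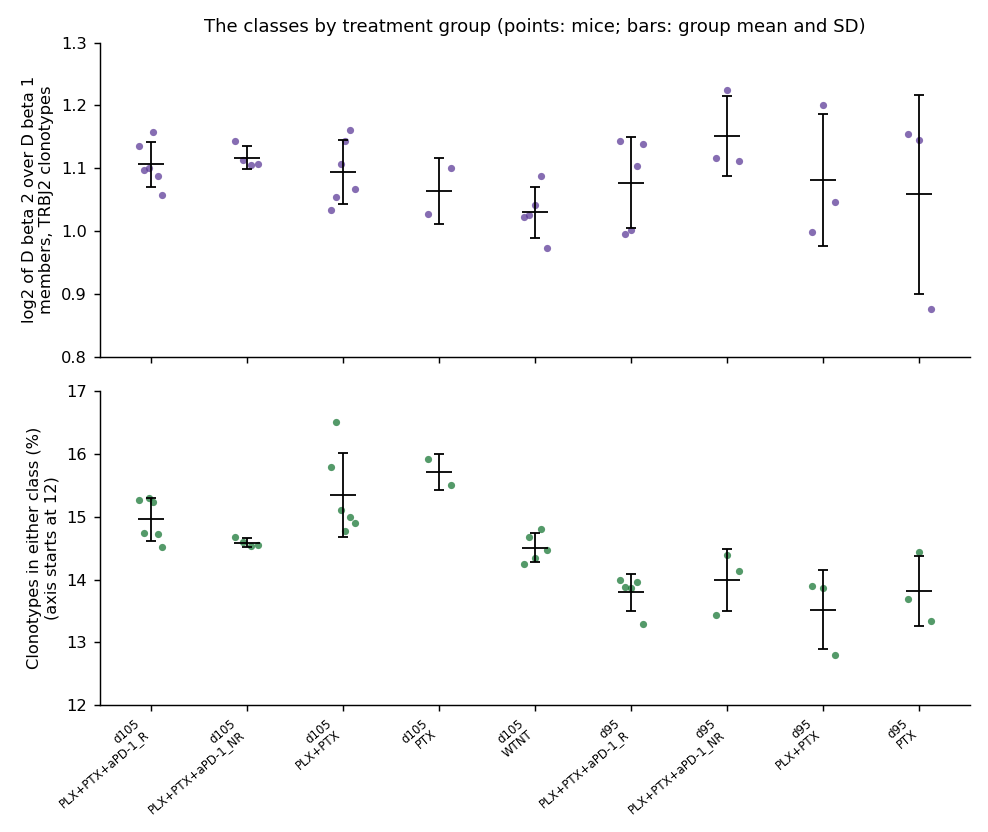
The upper panel gives the log2 ratio of D beta 2 to D beta 1 members among TRBJ2 clonotypes and the lower panel the percent of clonotypes in either class, for each mouse by group, with group means and SD as bars. The upper values of the WTNT mice have a mean of 1.03 and overlap those of the d105 treated mice as a whole, and the lower values are 14.2% or more at d105 and 14.4% or less at d95.

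Each triplet was also tested beside all others. Limma was fitted to log2 of the percent of clonotypes with a triplet plus 0.01, for the 555 triplets with a mean of at least 0.1%, counting here also the clonotypes with triplets of both classes. Between days 99 of 555 triplets passed (17.8%), 71 higher (12.8%) and 28 lower (5.05%) at d105. DWG rose from 4.61% ± 0.246 to 5.05% ± 0.213 (log2 0.13 ± 0.03 SE, limma adjusted p 0.00508) and GLG from 3.54% ± 0.232 to 4.04% ± 0.176 (0.19 ± 0.04 SE, 0.000268). GQG rose from 3.10% ± 0.181 to 3.34% ± 0.165 (0.11 ± 0.03 SE, 0.016), and DRG, at 2.63% ± 0.137 and 2.78% ± 0.119, did not pass (0.08, 0.0826). GTG, of either D segment, also passed (0.14, 0.00167). The median difference was 0.05 over all triplets and 0.12 over the 4 of the classes. With edgeR, which centres the values, the split was 38 higher and 43 lower, with 2 of the 4 among them. With clonotypes of at least 10 reads, or with reads, 0 of the 4 passed.

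In the 7 comparisons at 1 day limma called 0 of 555 triplets (0%), with 25 to 94 at an unadjusted p under 0.05. EdgeR and DESeq2 also called 0 in each, with 24 to 48 and 9 to 36 at an unadjusted p under 0.05. For MMTV-PyMT against WTNT mice the log2 differences were 0.08 for DWG, 0.08 for GLG, 0.04 for DRG and 0.00 for GQG (limma adjusted p 0.726, 0.726, 0.822 and 0.995), beside a median of 0.00 over all triplets. For R against NR at d105 they lay between 0.02 and 0.05, and at d95 between -0.07 and 0.07 (limma adjusted p from 0.817 to 0.959). In simulated data for R against NR, limma recovered 100% of 67 triplets changed by 1.5-fold at d105 and 70.2% of 67 at d95, where changes of that size could be missed.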

How the data were processed

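TRB libraries were made from genomic DNA of lymph node and sequenced as paired reads of 150 bases, per the labels. The deposited tables list, per the file headers, each clonotype with its best V, D and J segment, its CDR3 and its clone count, a raw count of reads. The normalized and the nb clone count, as deposited, are each a score, a rescaled count rounded to whole numbers by the authors. For the aligner, the caller and the build, names were not given in the sources used here. The files listed 0 unproductive clonotypes.

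The members, and every list and comparison, were chosen with earlier results of these data known. Each clonotype counted once, the mouse was the replicate, and groups came from the genotype, treatment and time labels. Differences within libraries were tested by random signs over 100000 resamples, and groups by exact permutation or, where noted, 100000 resamples, with Benjamini-Hochberg adjustment within each family and a threshold of 0.05. V segments needed a mean of 20 TRBJ2 members per library. Triplets were fitted with limma 3.58.1 in R 4.3.3, with edgeR 4.0.16 and DESeq2 1.42.0 on counts of clonotypes as alternatives. The limma step was tested on simulated data. Other values came from Python 3.11.15, numpy 2.4.6, pandas 2.3.3 and scipy 1.17.1. D calls, joint bases, codings by reads and ranks before the J alignment were chosen after the files were seen. Depth, thinning to 200000 reads, read filters, the scores, other definitions of the classes and each library left out were tried as alternatives. Named clonotypes were the 3 found in most libraries for each triplet. Germline D segment sequences were not used here.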

Additional observations from a re-analysis of the deposited data

Results flagged for a closer look

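In the 5 groups of 4 to 6 mice, tested on 6 measures each (30 sets), 1 mouse lay far from the rest, where chance gives about 1 in 20. In d95 PLX+PTX+aPD-1_R replicate 5, 13.3% of clonotypes were in either class, against 13.9% in the nearest and 14.0% in the highest of the 5 mice.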

How the results depend on the processing

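The TRBJ2 share differed between the classes by 24.2 to 33.4 points and the length by 0.292 to 0.487 residues over the alternatives, and by 30.6 to 30.8 points and 0.437 to 0.444 residues with each library left out. Over all results 304 alternative values kept direction and side of the threshold or, for counts of calls, stayed near the main count. Another 49 reversed, 18 lost and 2 gained a call with no change of sign, and 10 counts of calls moved. Those that reversed, and the group results that lost or gained a call, are given here, as log2 ratios of the classes or points of the percent in either class, and the cause was not tested.

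With reads in place of clonotypes the ratio differed by 0.067 (d95 R against NR) and -0.063 (PLX3397 at d95), the percent by 0.41 (d95 R against NR), -0.053 (aPD-1 at d95), 0.030 (PLX3397 at d95) and -0.12 (day), and TRBV5 was at 0.085. With the normalized clone count the ratio differed by 0.0099 (d105 R against NR), 0.080 (WTNT), 0.025 (d95 R against NR), -0.0050 (aPD-1 at d95) and -0.00079 (PLX3397 at d95), the percent by 0.26 (d95 R against NR), -0.049 (aPD-1 at d95) and -0.042 (day), and TRBJ2-1 was at -0.048. With the nb clone count the ratio differed by 0.0016 (d105 R against NR), 0.089 (WTNT), 0.013 (d95 R against NR) and -0.047 (PLX3397 at d95), and the percent by 0.34 (d95 R against NR), -0.012 (aPD-1 at d95) and 0.020 (day). The day difference of the ratio was -0.00082 with amino acid clonotypes merged and -0.026 after thinning to 200000 reads, where that of the percent was 0.15.

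Among clonotypes with at least 10 reads the ratio differed by 0.016 (d105 R against NR), -0.0014 and -0.042 (PLX3397 at d105 and d95) and 0.027 (d95 R against NR), and the percent by 0.072 (d95 R against NR) and 0.31 (day). TRBJ2-1 was at -0.061, and the coding of GQG passed at -2.66 points. With at least 50 reads, an alternative added after seeing the data, the ratio differed by 0.015 (d105 R against NR), -0.28 and -0.14 (PLX3397 at d105 and d95) and 0.0093 (d95 R against NR), and the percent by -0.31 (aPD-1 at d95), 0.39 (PLX3397 at d95) and -0.14 (day).

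By the joined bases the ratio differed by 0.011 (d105 R against NR), -0.027 and -0.083 (PLX3397 at d105 and d95), 0.012 (WTNT) and -0.061 (day), the percent by -0.027 (aPD-1 at d95), and TRBV1 was at 0.083. With DWG and DRG alone the ratio differed by -0.020 (PLX3397 at d105) and 0.045 (WTNT), and 2 of 6 J segments passed. With GLG and GQG alone TRBJ2-1 was at -0.048 and TRBV1 at 0.067. By the bases of GTG, also added later, TRBJ2-1, TRBJ2-5, TRBV1 and TRBV24 were at -0.15, -0.099, 0.37 and 0.019. Of single V and J segments, 11 values lost and 1 gained a call with no change of sign, among them TRBV19 at 0.050 by the bases of GTG. In the higher block of mouse numbers, with 8 and 2 mice, aPD-1 at d105 gave a ratio difference of -0.016.

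Triplets called between days numbered 54 with at least 10 reads, 65 with reads and 35 with a minimum mean of 0.01%. At d105, PLX3397 called ARA, GSY and PDS with at least 10 reads (3), GSY and PDS with reads (2) and REY with the lower minimum (1). WTNT mice differed in RSA and SGA with reads (2), and R from NR in QDT at d105 (1) and PRT at d95 (1) with at least 10 reads. These names were chosen after their values were seen.

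With each library left out, the ratio ranged from 0.056 to 0.085 for WTNT, from -0.020 to 0.018 for day, from -0.0061 to 0.068 for PLX3397 at d105, from -0.019 to 0.082 for aPD-1 at d95 and from -0.068 to 0.072 for PLX3397 at d95. The percent ranged from 1.28 to 1.45 for day, from -0.47 to 0.0090 for d95 R against NR, from -0.014 to 0.53 for aPD-1 at d95 and from -0.54 to 0.058 for PLX3397 at d95. Triplet calls ranged from 82 to 111 for day. They ranged from 0 to 30 for PLX3397 at d105, with 30 without PTX replicate 1, where the lone PTX mouse is assumed to vary like the others, 2 (PDS and SAN) without PLX+PTX replicate 2 and 1 (WDR) without PTX replicate 2. They ranged from 0 to 8 for d95 R against NR, with 8 without d95 NR replicate 3. No triplet of the classes was among the calls within a day in any of these. No paired analysis was possible because replicate numbers follow accession order and pair no mice. Groups of 2 or 3 mice and read depth limit what the d95 and PTX comparisons can show.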
